A study of Mus musculus with 12 samples.

Results

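Endometrium collected 8 h after mating with intact males was compared with endometrium collected 8 h after mating with vasectomized males, a contrast between complete seminal fluid and seminal plasma that lacks sperm and epididymal fluid. The comparison used the 8 arrays that the sample labels assign to the 2 mated groups, 4 intact-mated and 4 vasectomized-mated, out of 12 arrays in the series. All females were CBAF1, the F1 offspring of CBA and C57Bl/6 mice, all males were BALB/c, and vasectomy was surgical ligation, so the mated groups shared female genotype, male strain, mating and collection hour and differed in the surgery of the male. The other 4 arrays held endometrium of unmated virgin CBAF1 females, labelled as estrus and collected on the evening of pro-estrus, and their levels are given here only as a background, since their collection was not timed from a mating. Each array held pooled RNA of 4 females (16 females per group), hybridised to Affymetrix Mouse Gene 1.0 ST arrays, so p-values measure the spread between pools of females. The tissue was endometrium scraped from the uterus, with its epithelium, stroma, vessels and resident and recruited leukocytes together.

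Seminal fluid deposited at coitus is sensed by the uterine epithelium, which releases chemokines that draw neutrophils from the blood, and sperm reach the mouse uterine cavity directly at ejaculation. In neutrophil recruitment the receptor CXCR2 on the neutrophil responds to the ELR-positive CXC chemokines CXCL1, CXCL2, CXCL3, CXCL5 and CXCL7. Cholesterol synthesis is switched on as a block by the transcription factor SREBP2, which is released to the nucleus when sterols in the endoplasmic reticulum are low.

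Levels are the deposited log2 values, and a difference is the intact-mated mean minus the vasectomized-mated mean on that scale, so that a difference of 1 is a doubling of signal. A gene was called where the groups differed at least 1.5-fold with an adjusted p of at most 0.05 in a limma fit of all 12 arrays, corrected over all 35556 transcript clusters (probe sets that read 1 transcript region). Of 23410 clusters with a gene symbol, 132 (0.564%) were called higher and 62 (0.265%) lower after intact mating, 194 in all. These comprised 127 distinct genes higher and 55 lower, and at a 2-fold threshold 39 and 13 clusters remained past it. For all 132 and all 62 the 4 intact-mated arrays lay wholly outside the range of the 4 vasectomized-mated arrays, a separation that was also met by 8.58% of clusters on the higher side and 7.47% on the lower side irrespective of the call. Over all clusters with a symbol the median difference was 0.01, and 4049 of the 23410 had an unadjusted p under 0.05 in the limma fit. The gene lists below take 1 cluster per gene. By that count 125 of 19938 genes were called higher (0.627%) and 54 lower (0.271%). The mated groups did not overlap for 9.04% on the higher side and 7.49% on the lower side. Of these genes, 11140 differed above 0 and 3515 had an unadjusted p under 0.05. These shares are the background for each list count. The lists were written with earlier results of these data known, and some members may have been listed for that reason. A count above its share therefore describes the members and is not independent evidence. The counts depended on single arrays: without intact-mated replicate 2 they were 62 and 32, without intact-mated replicate 4 they were 69 and 27, without vasectomized-mated replicate 3 they were 81 and 40, without vasectomized-mated replicate 1 the higher count was 86, and without vasectomized-mated replicate 4 the lower count was 33.

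**Figure D1:**
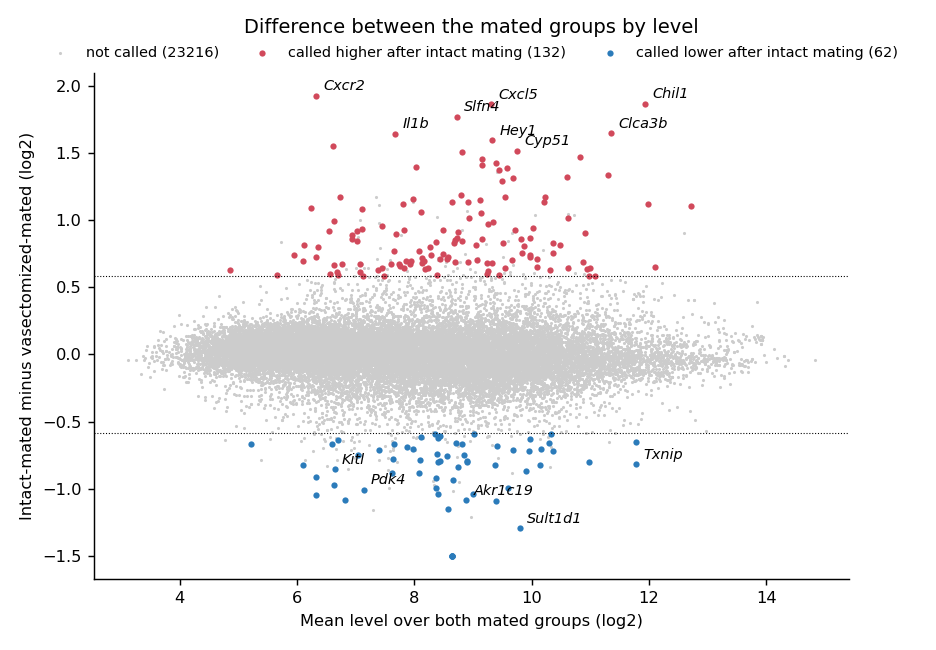
Each point is a transcript cluster with a gene symbol, placed by its mean log2 level over the 8 mated arrays and by the intact-mated minus vasectomized-mated difference, and dotted lines mark a 1.5-fold change. The 132 called higher and 62 called lower are coloured, with differences up to 1.92 for Cxcr2. The lowest points, at -1.50, are clusters annotated to several genes and carry no gene label in the figure.

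Array medians ran from 7.25 to 7.32. Over all 35556 clusters, correlations between arrays of the same mated group ran from 0.991 to 0.994, and those between the mated groups from 0.986 to 0.993. On the first principal component of the 8 mated arrays (39.8% of the variance) intact-mated arrays scored 14.2 ± 2.24 and vasectomized-mated arrays -14.2 ± 3.56 (SD, n = 4 each), with no overlap (exact permutation test, two-sided, p = 0.0286, the smallest that 4 against 4 arrays allow). For the tissue label, 13 measured epithelial markers had a median level at percentile 97.7 of all clusters, a description that also depends on the probes, and differed by a median of 0.03 between the mated groups, with 0 called by limma (5 at an unadjusted p under 0.05). Mean levels of the 12 stromal markers spread from 8.60 to 9.36 on intact-mated arrays and from 8.98 to 9.60 on vasectomized-mated arrays, with a median difference of -0.22 and 0 called (1 at an unadjusted p under 0.05). In a tissue extract, more cells of a type and more RNA per cell cannot be told apart.

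Cholesterol synthesis genes were the group with the most uniform increase among the lists examined by share of members called. Of 17 measured members, 14 rose after intact mating and 0 fell (against 0.564% and 0.265% of all clusters), with a median difference of 1.13, and in 16 of 17 the 4 intact-mated arrays lay above the 4 vasectomized-mated arrays. The vasectomized-mated mean was below the unmated mean for 15 of 17 genes, and the intact-mated mean was above the unmated mean for 15 of 17. The share of such orders over all genes was not counted. List means on unmated arrays, 8.97 to 9.81, overlapped the 8.74 to 9.36 after vasectomized mating and lay below the 9.86 to 10.21 after intact mating. For the 14 called genes, limma adjusted p-values against unmated arrays ran from 0.0874 (Fdps) to 0.820 (Hmgcs1) for vasectomized mating. For intact mating they ran from 0.000402 (Mvd) to 0.341 (Nsdhl).

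The increases covered the early, isoprenoid and sterol steps. Hmgcs1 encodes the synthase of an early step of the pathway. It read 10.74, 10.95, 10.59 and 10.80 on intact-mated arrays and 9.77, 10.12, 9.58 and 9.09 on vasectomized-mated arrays, a difference of 1.13 ± 0.22 (SE, adjusted p = 0.0252), with unmated arrays from 9.31 to 10.33. Its promoter is shown for the single exact match to a sterol regulatory element, the DNA sequence bound by SREBP, found among these genes. The 250 bases before the RefSeq start (GRCm38.p6, chr13:119690101-119690350, plus strand) carry TCACCCCAC, in capitals, from 137 to 129 bases before the start:
Hmgcs1: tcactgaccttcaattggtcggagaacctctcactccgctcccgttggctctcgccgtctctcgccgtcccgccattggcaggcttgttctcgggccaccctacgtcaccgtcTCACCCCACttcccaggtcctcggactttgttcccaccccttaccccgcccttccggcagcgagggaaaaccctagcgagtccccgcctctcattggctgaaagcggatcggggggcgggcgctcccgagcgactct

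The letters searched were TCACNCCAC on either strand within the 300 bases around each start (250 before and 50 after). They occurred for 1 of 14 cholesterol genes with a promoter in the table, for 0 of 14 other SREBP targets and for 1.44% of the 27025 genes in the table, and a match describes letters only.

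In the mevalonate steps, Mvk, Pmvk and Mvd, which convert mevalonate to the isoprene unit, rose by 0.83 ± 0.15, 0.65 ± 0.11 and 1.17 ± 0.18 (SE). Idi1, the isomerase of that unit, rose by 1.39 ± 0.28, and Fdps, which builds farnesyl diphosphate, by 0.93 ± 0.18. Their adjusted p-values lay between 0.00996 and 0.0265. Fdft1 (squalene synthase) rose by 0.90 ± 0.16, with 3 intact-mated arrays between 11.43 and 11.50 and replicate 3 apart at 11.05.

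Cyp51 and Lss, of the sterol steps, had larger differences than the other members. Squalene epoxidase, Sqle, read 10.26, 10.54, 10.10 and 10.47 against 9.09, 9.52, 8.98 and 8.53, a difference of 1.31 ± 0.25 (adjusted p = 0.0193). Lanosterol synthase, Lss, read 9.75, 10.08, 9.68 and 10.04 against 8.61, 8.82, 8.30 and 8.00, a difference of 1.46 ± 0.23 (adjusted p = 0.0112). Cyp51, the lanosterol demethylase, had the largest difference of the pathway at 1.51 ± 0.23 (adjusted p = 0.00914), with 10.47, 10.76, 10.19 and 10.63 against 9.0, 9.46, 8.92 and 8.63. Each of the 3 was lowest on vasectomized-mated replicate 4, and in none did the mated groups overlap. Msmo1, Hsd17b7 and Nsdhl, which trim the sterol's methyl groups, rose by 1.32 ± 0.26, 1.29 ± 0.21 and 0.87 ± 0.19, and Dhcr7, the final reductase, by 1.13 ± 0.16 (adjusted p = 0.0235, 0.0119, 0.0363 and 0.00719).

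The remaining 3 members did not pass the test. Sc5d, the sterol desaturase, differed by 0.46 ± 0.12 (adjusted p = 0.0688) and Tm7sf2, the sterol reductase that follows Cyp51, by 0.42 ± 0.14 (adjusted p = 0.138), both without overlap. Ebp, the sterol isomerase, differed by 0.04 ± 0.12 (95% interval -0.23 to 0.31), with intact-mated arrays from 9.51 to 9.82 among vasectomized-mated arrays from 9.38 to 9.74. The count of 14 fell to 5 without intact-mated replicate 2 or without intact-mated replicate 4 and to 7 without vasectomized-mated replicate 3 or 4, whereas the median difference stayed between 0.95 and 1.21 with any 1 mated array left out.

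**Figure D2:**
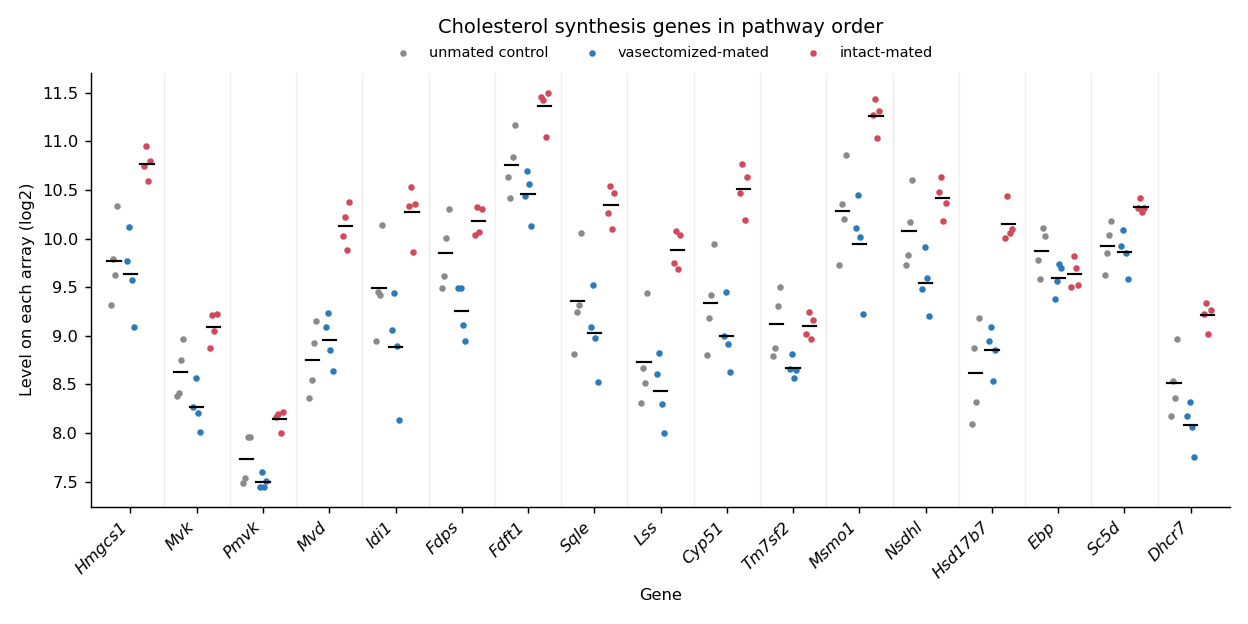
Log2 level of the 17 measured cholesterol synthesis genes, ordered from early to late pathway steps, on each of the 12 arrays, with a point per array and a bar at each group mean. Intact-mated points lie above vasectomized-mated points for every gene except Ebp.

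Beyond the pathway itself, 6 of 18 other SREBP targets rose and 0 fell (median difference 0.54), and 14 were without overlap on the higher side. Tmem97, a sterol-regulated membrane protein, rose by 1.19 ± 0.22 (adjusted p = 0.0199) and Lpin1, a phosphatidate phosphatase of triglyceride synthesis, by 0.91 ± 0.14 (adjusted p = 0.00996). The fatty acid elongase Elovl6 rose by 0.86 ± 0.18, the precursor gene of SREBP2 itself, Srebf2, by 0.64 ± 0.13, and Aacs and Acaca, which supply acetoacetyl-CoA and malonyl-CoA, were the other two called. Tmem97 and Acaca each have more than 1 cluster on the array, and these differed in call. Scd1, the stearoyl-CoA desaturase, differed by 1.06 ± 0.25 without passing (adjusted p = 0.0508). The count was 1 without intact-mated replicate 2 or 4 or vasectomized-mated replicate 3 or 4 and 3 without vasectomized-mated replicate 1, while the median difference ranged from 0.49 to 0.60. Of 9 measured targets of LXR, the receptor that senses sterol excess, 0 were called by limma (3 at an unadjusted p under 0.05). The largest differences among them were -0.59 ± 0.45 for the cholesterol exporter Abca1 (adjusted p = 0.542) and -0.58 ± 0.10 for Mylip, which degrades the LDL receptor (adjusted p = 0.0169, short of 1.5-fold). The count of LXR targets called lower was 1 without intact-mated replicate 1, 3 or 4 or vasectomized-mated replicate 2 or 3.

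Genes of fatty acid oxidation stood mainly on the lower side. Of 19 measured genes of oxidation and PPAR response, 3 fell and 0 rose (median difference -0.21), and 10 were without overlap on the lower side. Pdk4, the kinase that turns pyruvate away from oxidation during fasting, read 6.41, 6.46, 6.81 and 6.87 after intact mating and 8.05, 7.39, 7.45 and 7.67 after vasectomized mating (difference -1.0 ± 0.15, adjusted p = 0.01). The fatty acid transporter Cd36 fell by 0.82 and the coactivator of mitochondrial biogenesis Ppargc1a by 0.61 (adjusted p = 0.0256 and 0.0328), both groups of Cd36 being low, at 5.54 to 5.82 against 6.41 to 6.76 with vasectomized-mated replicate 1 the highest. Slc25a20, the mitochondrial carnitine carrier, differed by -0.47 ± 0.06 (adjusted p = 0.00568) without reaching 1.5-fold. The count of 3 was 1 with any single mated array left out except intact-mated replicate 1, and Pdk4 kept its call in each of those fits. The Ppargc1a cluster given here, taken for its higher mean, also lost its call under quantile normalization and under median centring. Another Ppargc1a cluster was called lower with a larger difference of -0.88 ± 0.13 (adjusted p = 0.00908), and its call was not followed through the alternatives.

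Of 16 glycolysis genes, 2 rose and 0 fell (median difference 0.28, 11 without overlap on the higher side). Slc16a3, the lactate exporter, read 10.31, 10.40, 10.30 and 10.40 against 9.67, 9.57, 9.55 and 9.64 (difference 0.74 ± 0.10, adjusted p = 0.00646), so that each intact-mated pool was above each vasectomized-mated pool by more than the spread within either group. Bpgm, which makes bisphosphoglycerate, rose by 0.70 ± 0.13, and it lost its call without intact-mated replicate 2 or 4 or vasectomized-mated replicate 1, 3 or 4. Among 15 hypoxia-induced genes 1 was called, Fam162a (difference 0.70 ± 0.09, adjusted p = 0.00568), with a median difference of 0.37 and 11 without overlap. Txnip, which limits glucose uptake, was the single one called of 15 FoxO and autophagy genes (difference -0.82 ± 0.14, adjusted p = 0.0167), and its call was lost without intact-mated replicate 4 or vasectomized-mated replicate 3 or 4. The count of that list was 2 without intact-mated replicate 1 or 3 or vasectomized-mated replicate 1 or 3 and 3 without vasectomized-mated replicate 2.

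In the CXCR2 system 4 of 8 members rose and 0 fell, with a median difference of 0.87. The genes of CXCL1, CXCL2, CXCL3, CXCL5 and CXCL7 are also among the cytokines below that the study picked on these samples. The counts of both lists therefore share genes and are not independent evidence. Cxcr2 itself, the chemokine receptor of neutrophils, rose. It read 6.55, 7.78, 7.22 and 7.58 on intact-mated arrays and 4.97, 5.62, 4.96 and 5.90 on vasectomized-mated arrays (difference 1.92 ± 0.26, adjusted p = 0.00568), where it lay near the unmated range of 4.89 to 5.16. Levels this low may be array background, so that the difference describes the deposited values and is not a measured fold of transcript. Cxcr1, the related receptor, differed by 0.20 ± 0.08 (adjusted p = 0.246).

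Among the ligands, Cxcl5, a chemokine made largely by epithelium, read 9.74, 10.77, 10.16 and 10.31 after intact mating and 8.22, 7.79, 8.36 and 9.17 after vasectomized mating (difference 1.86 ± 0.30, adjusted p = 0.0118). Unmated arrays read 5.76 to 5.83 for Cxcl5 with replicate 2 apart at 6.69, so this gene was above the unmated levels in both mated groups and highest after intact mating. Cxcl1 read 8.97, 9.34, 9.0 and 9.19 against 8.11, 8.11, 8.30 and 8.59 (difference 0.85 ± 0.11, adjusted p = 0.00568). Cxcl3 rose by 0.67 ± 0.12 (adjusted p = 0.0184).

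Cxcl2 read 9.99, 10.86, 9.59 and 9.91 against 8.01, 8.36, 8.90 and 9.66, and its difference of 1.36 ± 0.36 did not pass (adjusted p = 0.07), the highest vasectomized-mated array, replicate 4, lying above the lowest intact-mated one. Ppbp, the CXCL7 gene, differed by 0.89 ± 0.29 (adjusted p = 0.142) with no overlap, and Cxcl15 by 0.02 ± 0.41. These ligand genes lie together in a cluster on chromosome 5 of GRCm38.p6, with Cxcl5 at 90759298 to 90761625 and Cxcl2 at 90903899 to 90905938.

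The promoters of Cxcl1, Cxcl2 and Cxcl3 are shown because each holds the NF-κB motif GGG, any 2 bases, TTTCC, in capitals on either strand. Matches stood upstream of the RefSeq start in all 3, as 2 copies each in Cxcl1 and Cxcl2 and 1 in Cxcl3. The windows are the 250 bases before the start on the plus strand of GRCm38.p6, chr5:90890995-90891244, chr5:90903649-90903898 and chr5:90785851-90786100:
Cxcl1: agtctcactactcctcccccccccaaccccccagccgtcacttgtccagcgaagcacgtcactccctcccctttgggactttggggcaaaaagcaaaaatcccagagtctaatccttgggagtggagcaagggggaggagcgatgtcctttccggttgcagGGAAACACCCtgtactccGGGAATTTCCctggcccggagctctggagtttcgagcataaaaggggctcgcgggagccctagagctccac
Cxcl2: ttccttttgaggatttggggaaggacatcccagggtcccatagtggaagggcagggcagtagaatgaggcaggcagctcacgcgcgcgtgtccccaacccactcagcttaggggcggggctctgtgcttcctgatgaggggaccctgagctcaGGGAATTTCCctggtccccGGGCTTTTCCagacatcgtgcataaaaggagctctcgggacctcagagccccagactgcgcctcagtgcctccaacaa
Cxcl3: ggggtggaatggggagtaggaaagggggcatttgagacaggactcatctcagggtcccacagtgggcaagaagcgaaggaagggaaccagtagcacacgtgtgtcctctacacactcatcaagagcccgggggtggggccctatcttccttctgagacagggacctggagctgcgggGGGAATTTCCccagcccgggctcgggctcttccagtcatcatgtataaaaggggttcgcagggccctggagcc

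The copy GGGAATTTCC began 71 bases before the start in Cxcl1, 97 in Cxcl2 and 73 in Cxcl3. The motif occurred for 3 of 7 CXCR2-system genes with a promoter in the table (42.9%), for 5 of 14 of the cytokines named below (35.7%), for 7 of 102 genes called higher (6.86%), for 0 of 48 called lower and for 1.89% of all 27025 genes. Cxcl1, Cxcl2 and Cxcl3 are the 3 and are also among the 5, so these shares are not separate. Cxcl2 was not called, and a match describes letters only.

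**Figure D3:**
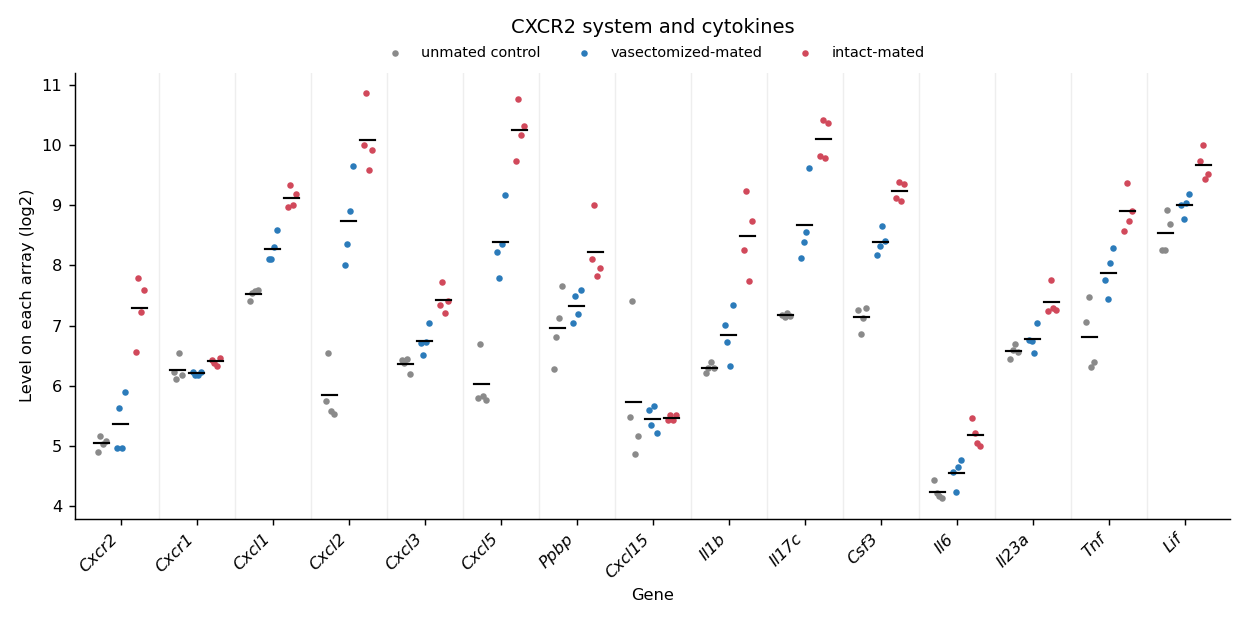
Log2 level of 8 genes of the CXCR2 system and 7 further cytokine genes on each of the 12 arrays, with a point per array and a bar at each group mean. Cxcr2 on vasectomized-mated arrays lies near the unmated arrays, whereas Cxcl5 and Cxcl2 stand well above the unmated means in both mated groups.

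Of 18 cytokine and mediator genes that the study itself picked for their difference between these mated groups, 8 rose and 0 fell (median difference 0.84), and 15 were without overlap on the higher side. These are the genes of that list with a cluster of their own. The list also holds Ccl21a, which is measured only by clusters annotated to several genes, and those clusters were called lower, at 7.90 against 9.39 (difference -1.50 ± 0.20, adjusted p = 0.00568). The list was chosen on these samples and is not independent evidence of its direction. Il1b, a chief pyrogenic cytokine of myeloid cells, read 8.26, 9.23, 7.74 and 8.74 against 7.0, 6.73, 6.32 and 7.34 (difference 1.64 ± 0.28, adjusted p = 0.013). Il17c, an epithelial cytokine that acts back on epithelium, read 9.82, 10.42, 9.79 and 10.36 against 8.13, 8.39, 8.56 and 9.62 (difference 1.42 ± 0.26, adjusted p = 0.0191). Csf3, which encodes G-CSF, the growth factor of neutrophils, read 9.12, 9.39, 9.06 and 9.35 against 8.18, 8.33, 8.66 and 8.40 (difference 0.84 ± 0.12, adjusted p = 0.00838). All 3 separated the mated groups fully, and the unmated means of 6.30, 7.17 and 7.13 were the lowest.

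Il6 was the dimmest of the called cytokines, at 5.46, 5.21, 5.04 and 5.0 against 4.57, 4.23, 4.65 and 4.76 (difference 0.63 ± 0.13, adjusted p = 0.0281). Both groups stood at levels that may be array background, and the call was lost without intact-mated replicate 1, 2 or 4 or vasectomized-mated replicate 1, 2 or 3. Il23a, the interleukin-23 subunit, rose by 0.61 ± 0.13 with intact-mated replicate 2 apart at 7.75 and the others at 7.24 to 7.29. Tnf, Ccl3, Lif and Csf1 differed by 1.02, 1.11, 0.68 and 0.63 without passing (adjusted p from 0.0532 to 0.149), although the mated groups did not overlap. Ptgs2, the inducible cyclooxygenase, stood at 13.06 against 12.16 and did not pass (adjusted p = 0.213), nor did Cxcl10, Cxcl16 or Ccl28. The count of 8 was 4 without intact-mated replicate 2 or 4 or vasectomized-mated replicate 1 or 3, 5 without vasectomized-mated replicate 2, and 13 where only the 8 mated arrays were fitted.

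Of 37 other chemokines and cytokines, 0 rose and 1 fell, with a median difference of 0.07. The gene that fell was Kitl, the stem cell factor that sustains mast cells and germ cells, at 5.98, 6.14, 6.36 and 6.40 against 7.01, 7.02, 7.13 and 7.13 (difference -0.85 ± 0.17, adjusted p = 0.0253). Its call was lost without intact-mated replicate 2 or 4 or any 1 vasectomized-mated array, and 1 gene was called higher without unmated replicate 2 or 4. Tgfb1 differed by 0.64 ± 0.16 (adjusted p = 0.0612), without overlap and with intact-mated replicate 2 the highest.

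In the interleukin-1 family 4 of 11 members rose and 0 fell (median difference 0.59). Besides Il1b these were Il1f9, the gene of interleukin-36 gamma (difference 1.17 ± 0.24, adjusted p = 0.0286), and the brakes of the system, the decoy receptor Il1r2 (0.92 ± 0.15, adjusted p = 0.0118) and the receptor antagonist Il1rn (0.89 ± 0.18, adjusted p = 0.0253). Il1f6, the gene of interleukin-36 alpha, differed by 1.05 ± 0.29 (adjusted p = 0.0797). The count was 2 without intact-mated replicate 2 or 4 or vasectomized-mated replicate 1, 2 or 3.

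Of 21 genes of the NF-κB pathway and its feedback, 5 rose and 0 fell (against 0.627% and 0.271% of all genes). The median difference was 0.47, and 16 were without overlap on the higher side (against 9.04%). Tnfaip2, a TNF-induced gene, read 11.29, 11.73, 11.47 and 11.72 against 9.62, 9.60, 10.02 and 11.10 (difference 1.47 ± 0.34, adjusted p = 0.0433), and it lost its call without most single arrays. Zc3h12a, the RNase regnase-1 that destroys cytokine transcripts, read 10.21, 10.22, 10.09 and 10.33 against 9.36, 9.45, 9.59 and 9.41 (difference 0.76 ± 0.10, adjusted p = 0.00596) and kept its call without any 1 array. The other 3 were the kinase Ikbke, the TLR brake Irak3 and the peptidoglycan sensor Nod2, while the deubiquitinase Tnfaip3 differed by 0.77 ± 0.29 (adjusted p = 0.194). The count was 3 without intact-mated replicate 2, 3 or 4 or vasectomized-mated replicate 2. Among 18 Toll-like receptor genes and adaptors 0 were called by limma (median difference 0.03, 6 at an unadjusted p under 0.05). Tlr4, the receptor of lipopolysaccharide, differed by -0.45 ± 0.10 (adjusted p = 0.0339) and its co-receptor Cd14 by 0.42 ± 0.11 (adjusted p = 0.0649), neither of them 1.5-fold.

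Of 24 interferon-induced genes 0 were called higher and 0 lower by limma, with a median difference of 0.26, 9 at an unadjusted p under 0.05 and 9 without overlap on the higher side. The antiviral genes Rsad2 and Usp18 differed by 0.66 ± 0.16 and 0.54 ± 0.10 (adjusted p = 0.0579 and 0.0193), the latter under 1.5-fold. The count called higher was 1 without unmated replicate 3, intact-mated replicate 3 or vasectomized-mated replicate 3 and 2 without vasectomized-mated replicate 4. Of 20 targets of IL6 and STAT3, 2 rose, the acute-phase gene Saa3 and Lrg1, and 1 fell, Lifr, the LIF receptor (difference -0.82 ± 0.18, adjusted p = 0.0343). Saa3 read 9.09, 8.92 and 8.96 on intact-mated replicates 2, 3 and 4 but 7.95 on replicate 1, against 6.84 to 7.75 on vasectomized-mated arrays (difference 1.40 ± 0.25, adjusted p = 0.0166). Saa3 lost its call without intact-mated replicate 2 or 4, Lrg1 without intact-mated replicate 2, 3 or 4 or vasectomized-mated replicate 2, 3 or 4, and Lifr without any mated array except intact-mated replicate 1.

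Of 23 neutrophil markers 8 rose and 0 fell, against a median difference of 0.11 for the list. Differences ran from -0.32 to 1.92, with 17 above 0 and 6 below 0. Without overlap were 10 markers on the higher side and 2 on the lower side. Beside Cxcr2 and Il1r2 the called markers were Slfn4, S100a9, Csf3r, Trem1, Clec4d and Hcar2. Slfn4, a schlafen gene of activated myeloid cells, read 8.99, 10.06, 9.51 and 9.88 against 7.82, 7.68, 7.53 and 8.33 (difference 1.77 ± 0.22, adjusted p = 0.00568). S100a9, a calprotectin subunit abundant in neutrophil cytosol, read 6.73, 8.10, 7.02 and 7.41 against 5.85, 6.29, 6.25 and 6.20 (difference 1.17 ± 0.23, adjusted p = 0.0235). Csf3r, the receptor of G-CSF, read 7.12, 7.98, 7.44 and 8.04 against 6.87, 6.38, 6.28 and 6.72 (difference 1.08 ± 0.21, adjusted p = 0.0236). Intact-mated replicate 2 was the highest array for Slfn4 and S100a9 and replicate 1 the lowest for all 3, and no mated arrays overlapped.

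Of the 15 markers that were not called, 4 granule genes are given as examples, picked outside the naming rule. Mpo differed by -0.03 ± 0.08, Elane by 0.11 ± 0.09, Ngp by 0.08 ± 0.07 and Camp by 0.06 ± 0.08. The other uncalled markers, some of them without overlap, are not named here. The mean level of the 23 markers ran from 7.13 to 7.48 on intact-mated arrays, above the 6.80 to 6.95 on vasectomized-mated arrays and the 6.65 to 6.81 on unmated arrays. Their summed signal on the linear scale ran from 7099 to 8415 on intact-mated arrays and from 6460 to 7101 on vasectomized-mated arrays, and unmated arrays, at 5284 to 7303, overlapped both. The part of neutrophil number in the differences of Il1b, Il1rn, Ccl3 and Tnf, which neutrophils also express, was not tested. The count of 8 was 5 without intact-mated replicate 2 or vasectomized-mated replicate 1 or 3, 4 without intact-mated replicate 4 and 2 where dim clusters were left out. Of the other leukocyte markers 0 were called (7 of B and plasma cells, 11 of mast cells and eosinophils, 14 of macrophages, 14 of dendritic cells and 16 of T and NK cells), with median differences from -0.06 to 0.06 and between 0 and 4 per list at an unadjusted p under 0.05.

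Of 26 mucosal defense genes 7 rose and 0 fell (median difference 0.21). Chil1, a chitinase-like protein, read 12.63, 13.31, 12.39 and 13.15 against 10.59, 10.67, 11.04 and 11.71 (difference 1.87 ± 0.29, adjusted p = 0.0112), and unmated arrays read 8.40 to 9.47. Nos2, the inducible nitric oxide synthase, read 9.85, 9.72 and 9.83 on intact-mated replicates 1, 2 and 4 and 8.90 on replicate 3, just above the highest vasectomized-mated array at 8.88 (difference 1.51 ± 0.29, adjusted p = 0.0222). The further members were Saa3, S100a9, Ly6i, the interleukin-22 receptor chain Il22ra1, of which another cluster differed in call, and Trim40. The count was 4 without intact-mated replicate 2 or vasectomized-mated replicate 3 and 3 without intact-mated replicate 4.

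Of 13 oxidase genes 2 rose, both parts of 1 enzyme. Nox1, the catalytic subunit of the epithelial superoxide-generating oxidase, read 7.20, 7.77, 7.17 and 7.44 against 5.80, 5.49, 5.57 and 6.53 (difference 1.55 ± 0.21, adjusted p = 0.00568), and the unmated range of 5.31 to 5.76 overlapped that of vasectomized-mated arrays. Its organizer subunit Noxo1 read 10.30, 10.68, 10.46 and 10.58 against 9.57, 9.36, 9.54 and 9.78 (difference 0.94 ± 0.15, adjusted p = 0.0122), and its activator Noxa1 differed by 0.41 ± 0.13 (adjusted p = 0.116).

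Of 24 epithelial ion transport genes 4 rose and 0 fell (median difference 0.01). The 3 chloride channel accessory genes lie side by side on chromosome 3 of GRCm38.p6 between 144729677 and 144849302 and are close in sequence, so signal may be shared between them. Clca3a1 read 9.84, 10.03, 9.76 and 9.80 against 8.17, 8.26, 8.92 and 8.44 (difference 1.41 ± 0.16, adjusted p = 0.00433), and Clca3b and Clca3a2 differed by 1.65 ± 0.31 and 1.33 ± 0.23 (adjusted p = 0.0216 and 0.0141). Kcne3, a potassium channel subunit, was the remaining one called. The water channel Aqp8 read 6.62, 6.87, 6.61 and 6.74 against 8.15, 7.11, 8.54 and 7.66, without overlap and without passing (difference -1.15 ± 0.29, adjusted p = 0.0627). The count of increases was 2 without intact-mated replicate 2, and 1 gene was called lower without unmated replicate 3 or vasectomized-mated replicate 2.

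Of 21 cornified envelope and squamous genes 5 rose and 0 fell (median difference 0.19). Klk10, a kallikrein protease, read 8.09, 8.68, 8.40 and 8.30 against 7.0, 7.26, 7.26 and 7.47 (difference 1.12 ± 0.12, adjusted p = 0.00433), with vasectomized-mated levels like those of unmated arrays at 7.13 to 7.39. Sprr2b, Sprr2d and Sprr2e, small proline-rich proteins of the uterine surface that are near copies of one another, differed by 1.12, 1.10 and 0.86, and Sprr2e had vasectomized-mated replicate 1 apart at 9.0. Krt25, a hair keratin, was the other one called. The count was 3 without intact-mated replicate 1, 2 or 4 or vasectomized-mated replicate 1, 2 or 3, and 1 gene was called lower without intact-mated replicate 1.

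In the Notch pathway 1 of 20 genes rose and 1 fell (against 0.627% and 0.271% of all genes). The effector Hey1 read 10.18, 10.28, 9.84 and 10.20 against 8.87, 8.47, 8.08 and 8.71 (difference 1.59 ± 0.21, adjusted p = 0.00568). The ligand Dll4 read 8.50, 8.35, 8.46 and 8.56 against 9.46, 9.05, 9.06 and 9.29 (difference -0.75 ± 0.12, adjusted p = 0.0124). The related effector Hes1 differed by -0.56 ± 0.09 (adjusted p = 0.0131), under 1.5-fold, so that Hey1 and Hes1 stood on opposite sides of 0, and the count of decreases was 2 without intact-mated replicate 2 or 3 or vasectomized-mated replicate 4. The RBPJ motif TGTGGGAA, searched on either strand, was matched for Hes5 alone of 16 Notch genes with a promoter (6.25%) and for 2.17% of all genes.

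Of 21 prostaglandin and leukotriene genes, the prostaglandin transporter Slco2a1 and the leukotriene C4 synthase Ltc4s rose by 0.97 ± 0.20 and 0.67 ± 0.08, and the prostaglandin E2 receptor Ptger4 fell, at 10.01, 9.67, 9.67 and 9.87 against 10.37, 10.55, 10.65 and 10.46 (difference -0.70 ± 0.11, adjusted p = 0.00914). Slco2a1 lost its call without any 1 mated array except intact-mated replicate 1, and 2 genes of the list were called lower without unmated replicate 1. Of 21 genes of ER stress and amino acid response 3 rose, Creb3l1, Bhlha15 and Slc1a4, Creb3l1 and Bhlha15 being regulators of secretory cells (differences 0.83 ± 0.13, 0.74 ± 0.12 and 0.67 ± 0.10).

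Of 22 steroid and retinoid enzymes 3 fell and 1 rose (median difference -0.15). Sult1d1, a sulfotransferase, read 9.56, 9.30, 9.07 and 8.70 after intact mating and 10.17, 10.31, 10.63 and 10.69 after vasectomized mating (difference -1.29 ± 0.20, adjusted p = 0.0107), with unmated arrays at 9.22 to 10.06. Akr1c19, an aldo-keto reductase, read 8.60, 8.07, 8.41 and 8.30 against 9.24, 9.45, 9.10 and 9.93 (difference -1.08 ± 0.16, adjusted p = 0.00755). The third was Dhrs4, a retinal reductase, and the gene that rose was Cyp27b1, which activates vitamin D (0.67 ± 0.08, adjusted p = 0.00433).

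Of the 15 largest called decreases, the vasectomized-mated mean was above the unmated mean in 9 and below it in 6. Etnppl, an enzyme of phospholipid breakdown, read 7.67 to 8.17 after intact mating, 8.65 to 9.03 after vasectomized mating with replicate 1 the lowest, and 6.18 to 7.15 in unmated females (difference -1.04 ± 0.19, adjusted p = 0.0169). Abcb1b, the multidrug efflux pump, likewise had means of 7.88, 8.87 and 7.27 in that order, and Erbb4, an EGF-family receptor, 8.19, 9.12 and 8.08. For these genes the vasectomized-mated mean was the highest of the 3 groups. Etnppl, Abcb1b and Erbb4 each lost the call without intact-mated replicate 2 or 4. Etnppl also lost it without vasectomized-mated replicate 3 or 4, and Erbb4 without vasectomized-mated replicate 2, 3 or 4.

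For others the unmated mean was the highest. Adh1, the retinol-oxidizing alcohol dehydrogenase, read 8.42, 8.85, 9.12 and 9.04 after intact mating, 10.60, 9.40, 10.04 and 9.74 after vasectomized mating and 10.86 to 11.56 in unmated females (difference -1.09 ± 0.24, adjusted p = 0.0355). The Adh1 call was lost without any 1 mated array except vasectomized-mated replicate 2. Pcp4l1, a calmodulin-binding protein relative, had means of 9.11, 10.10 and 10.90, with vasectomized-mated replicate 3 apart at 10.65, and Dpy19l1, a mannosyltransferase relative, 7.92, 8.83 and 9.68. Pcp4l1 lost its call without intact-mated replicate 2, 3 or 4, and Dpy19l1 without intact-mated replicate 4 or vasectomized-mated replicate 3. Greb1, an estrogen-response gene, was the 1 of 17 steroid receptor and implantation genes that fell, with means of 8.17, 8.93 and 10.70 (adjusted p = 0.0428) and unmated replicate 2 apart at 10.13. Its call was lost under quantile normalization, under median centring and without any mated array except vasectomized-mated replicate 2, and the progesterone receptor Pgr, at 8.23, 8.88 and 10.22, did not pass (adjusted p = 0.0922).

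**Figure D4:**
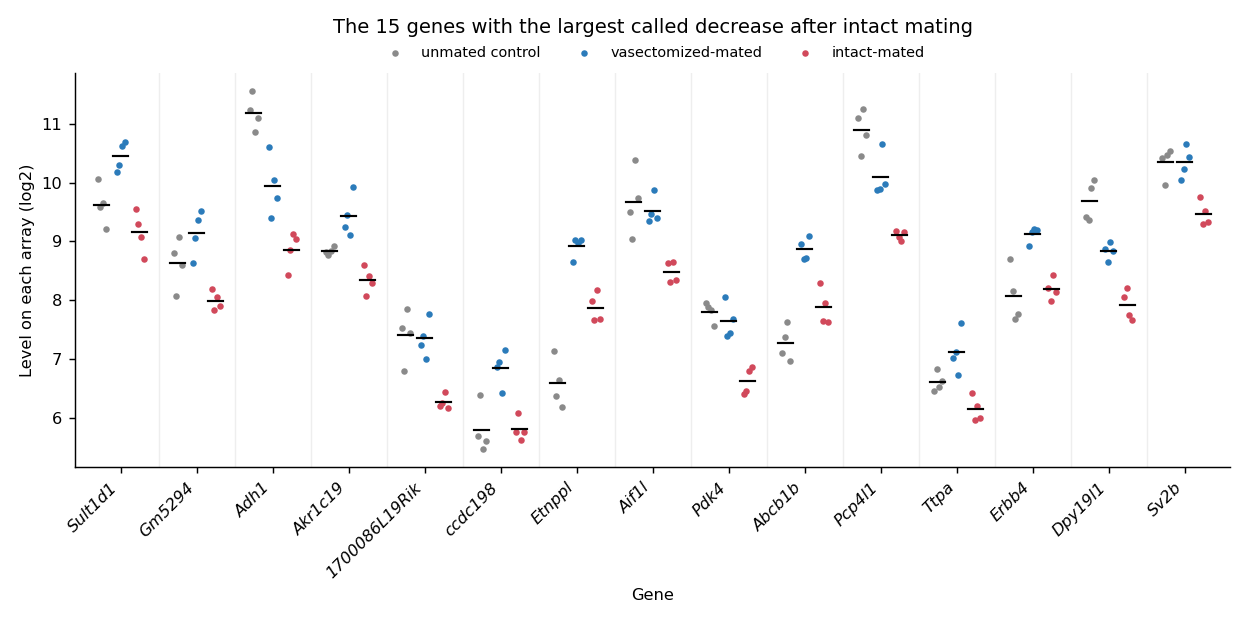
Log2 level on each of the 12 arrays for the 15 genes with the largest called decrease after intact mating, ordered by size from -1.29 for Sult1d1, with a point per array and a bar at each group mean. In every gene the 4 intact-mated points lie below the 4 vasectomized-mated points, because only called genes without overlap could be chosen. The unmated points lie above, between or below them depending on the gene.

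Of 296 clusters with a single symbol that names a microRNA gene, 1 was called, higher (against 0.564% of all clusters with a symbol). It was Mir135b, at 6.90, 7.57, 7.03 and 7.0 against 5.81, 6.08, 6.05 and 6.59 (difference 0.99 ± 0.17, adjusted p = 0.0151). The microRNA gene (GRCm38.p6, chr1:132198088-132198184) lies inside Lemd1 (chr1:132190629-132257382), a LEM-domain protein gene that was itself called at 6.61, 6.89, 6.66 and 6.95 against 5.51, 5.74, 5.43 and 6.08 (difference 1.09 ± 0.16, adjusted p = 0.00837). The array reads RNA of the region, so the mature microRNA and the host transcript cannot be told apart. The mature arm that the RefSeq table holds is shown with its seed, bases 2 to 8, in capitals:
mmu-miR-135b-3p: aUGUAGGGcuaaaagccauggg

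Transcripts that sperm or male tract could bring in were examined with 3 further lists. Of 25 sperm and spermatid genes 0 were called by limma (3 at an unadjusted p under 0.05, against 3515 of 19938 over all genes). Their median difference was 0.09, with 20 differences above 0 (against 11140 of 19938) and 5 without overlap on the higher side (against 9.04%). The largest was Smcp, a sperm mitochondrial capsule protein, at 5.84, 5.87, 6.18 and 5.79 against 5.71, 5.67, 5.66 and 5.55 (difference 0.27 ± 0.09, adjusted p = 0.126), and the protamines Prm1 and Prm2 each differed by 0.09 ± 0.07. The median level of the list stood at percentile 24.2 of all clusters, and its mean on single arrays was 6.10 to 6.16 after intact mating, 5.99 to 6.07 after vasectomized mating and 5.95 to 6.18 in unmated females. Of 13 epididymal and 13 accessory gland genes 0 were called, with 0 and 2 at an unadjusted p under 0.05 and median differences of 0.01 and 0.06. At these levels a difference of array background and a trace of transcript cannot be told apart.

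Cell cycle genes did not separate the mated groups. Of 23 measured, 0 were called by limma (3 at an unadjusted p under 0.05) and 0 were without overlap, with differences from -0.99 to 0.65. Mki67, the proliferation antigen, differed by -0.99 ± 0.49 (adjusted p = 0.327), its standard error exceeding the median of 0.087 over all clusters with a symbol. Of 17 clock genes and 10 reference genes 0 were called, with 7 and 1 at an unadjusted p under 0.05 and median differences of -0.19 and -0.01. The clock list took the brighter of 2 clusters for Ciart, a repressor of the clock, whose other cluster was called higher (difference 0.59 ± 0.13, adjusted p = 0.0328). Cipc, a further clock repressor that the list does not hold and that was named after its values were seen, was called lower (difference -0.59 ± 0.12, adjusted p = 0.0283).

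**Figure D5:**
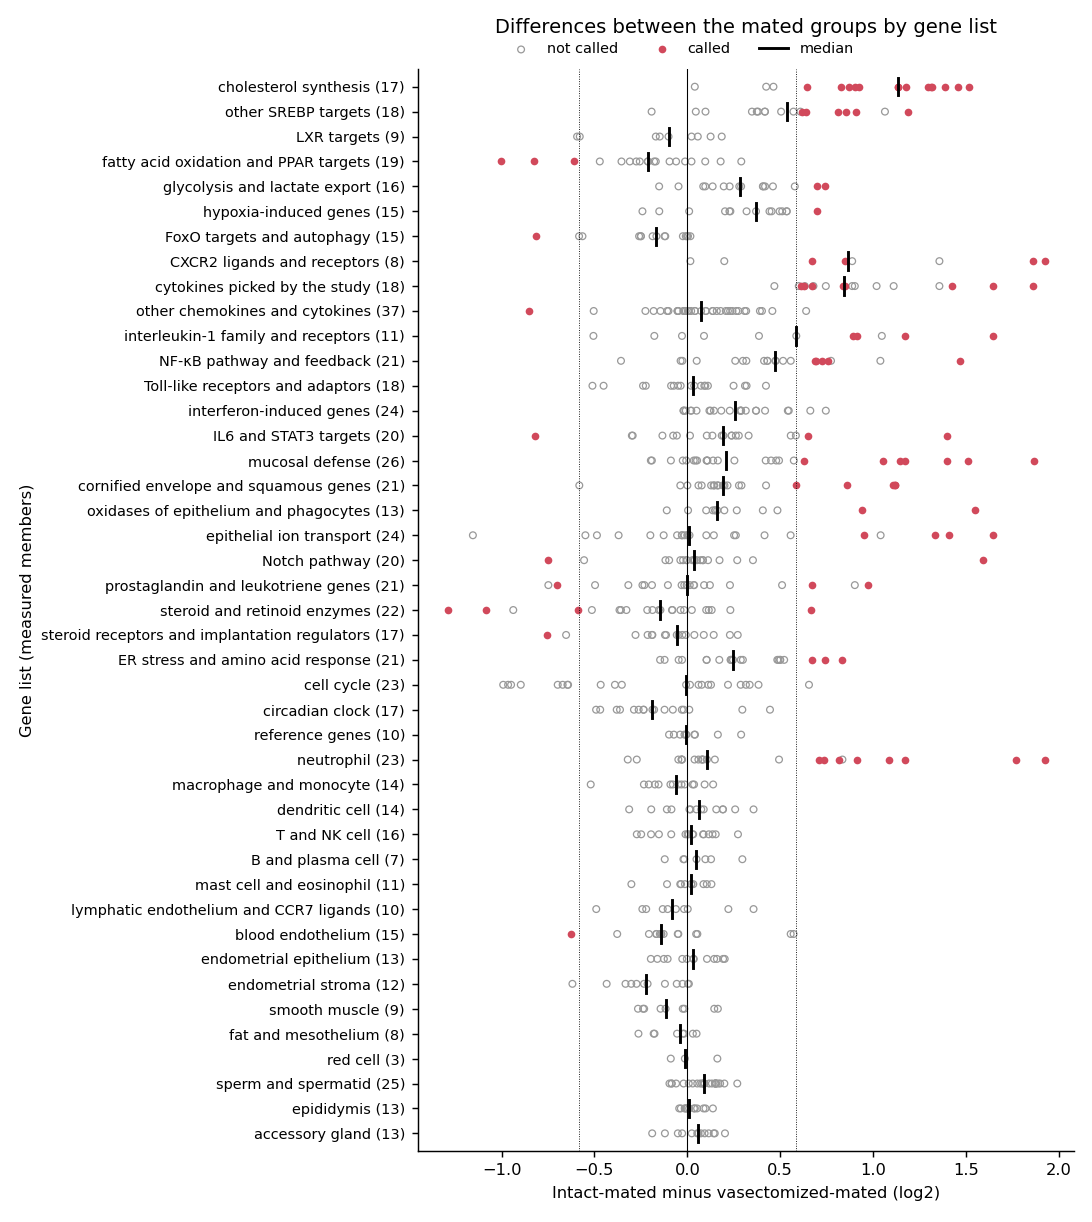
Intact-mated minus vasectomized-mated difference (log2) of every measured member of each gene list, with filled points for called genes, open points for the rest, a bar at the median of each list and dotted lines at 1.5-fold. Cholesterol synthesis has a median of 1.13 with 14 of 17 filled, while macrophage, T and NK, epithelial and sperm lists hold 0 filled points and centre near 0.

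Of 202 genes picked for description by a single rule, 79 were called, and 0 of those 79 changed sign under any of the 24 alternative settings that they were part of, 15 of them being absent from the fit without dim clusters. The call was kept in every alternative that held the gene, the stricter 2-fold threshold aside, by 34 of them, of which Cxcr2, Il1b, Nox1, Il1r2, Cyp27b1 and Ttpa were not in the fit without dim clusters. The 34 included Cxcr2, Chil1, Cxcl5, Slfn4, Il1b, Hey1, Nox1, Cyp51, Lss, Clca3a1, Hsd17b7, Mvd, Dhcr7, Klk10, Sprr2b, Sprr2d, Pdk4, Akr1c19 and Sult1d1, which also passed the 2-fold threshold. Over the 79 genes the highest adjusted p in any alternative was 0.126.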

How the data were processed

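Endometrial RNA of the 3 groups was measured on Affymetrix Mouse Gene 1.0 ST arrays. The authors normalized the arrays together by RMA in Partek, and the deposited values are log2 expression per transcript cluster (for the software, a version was not given in the sources used). Fluorescence intensities were not used, and the number of arrays limits the precision. Of 35556 clusters, 21789 carry 1 gene symbol in the platform annotation, 1621 several and 12146 none. No gene was named from a cluster with several, except that the shared clusters annotated to Ccl21a and other genes were reported. Of the clusters with 1 symbol, 21698 matched the RefSeq gene table, with 0 symbols changed.

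The main fit was a limma linear model (limma 3.58.1, R 4.3.3) of all 12 arrays with 1 mean per group and empirical Bayes moderation, Benjamini-Hochberg adjustment over all clusters, and a call at 1.5-fold and an adjusted p of 0.05. It was tested on simulated data. Samples were grouped by their titles. Named genes were the 15 largest called changes in each direction among clusters with 1 symbol and without overlap, all members of the cholesterol, CXCR2 and study-picked cytokine lists, and up to 4 members of each other list by absolute difference; for several clusters of a gene, that with the highest mean was taken. Other genes called within a list, and Mir135b and Lemd1, were named after their values were seen. The uncalled Mpo, Elane, Ngp, Camp, Prm1 and Prm2 were also named outside the rule. The gene lists and members were chosen with earlier results of these data and the study's gene tables known. Principal components were compared by an exact permutation test. Promoters, microRNA sequence and coordinates came from RefSeq on GRCm38.p6, read with Python 3.11.15. Alternatives changed the arrays fitted, moderation, array weights, normalization, replicate block, filter on dim clusters, features corrected, clusters per gene and fold threshold, or left out each array in turn.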

Additional observations from a re-analysis of the deposited data

Results flagged for a closer look

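In 10 of 237 groups of 4 arrays examined, 1 array stood apart, with a gap to its nearest neighbour that took up most of the group's range, where chance gives about 1 group in 20. The gap was a fraction 0.927 of the range for Cxcl5 in unmated females (replicate 2 at 6.69, others 5.76 to 5.83) and 0.895 for Greb1 there (replicate 2 at 10.13, others 10.85 to 10.94). On intact-mated arrays it was 0.908 for Il23a (replicate 2 at 7.75, others 7.24 to 7.29) and 0.857 for Nos2 (replicate 3 at 8.90, others 9.72 to 9.85). It was 0.852 for Saa3 (replicate 1 at 7.95, others 8.92 to 9.09) and 0.839 for Fdft1 (replicate 3 at 11.05, others 11.43 to 11.50) in the same group. On vasectomized-mated arrays it was 0.872 for Pcp4l1 (replicate 3 at 10.65, others 9.88 to 9.97) and 0.858 for Cd36 (replicate 1 at 6.76, others 6.41 to 6.46). It was 0.839 for both Sprr2e (replicate 1 at 9.0, others 9.47 to 9.56) and Etnppl (replicate 1 at 8.65, others 8.97 to 9.03) in that group.

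Among the clusters without a gene symbol, which the report does not use, 89 passed the same threshold, 8 higher and 81 lower after intact mating. What these clusters measure is not analysed here.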

How the results depend on the processing

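The counts of called clusters, 132 higher and 62 lower, were 71 and 32 without variance moderation, 39 and 13 at a 2-fold threshold, and 366 and 250 with no fold threshold. Leaving out 1 array gave 62 to 147 higher and 27 to 80 lower, and each such fit that omits a mated array leaves fewer samples in that group. Fitting only the 8 mated arrays gave 158 and 86. Array weights gave 169 and 93, quantile normalization 155 and 53, median centring 151 and 54, and leaving out dim clusters 118 and 64. With the replicate number as a block the counts were 91 and 41. The numbers did not pair the arrays: deviations from the group means of same-numbered mated arrays correlated at -0.38, -0.17, -0.14 and -0.11, and 0 of 8 mated arrays correlated best with their own number. The mated groups did not overlap on the first principal component in the alternatives run on it, where p is bounded by the number of arrays. Sign changes among named genes were limited to 6 genes that were not called: Epb42 stood at 0.0127 under median centring, and with 1 array left out Epb42 ranged from -0.0532 to 0.0259, H2-Aa from -0.375 to 0.0206, Jchain from -0.252 to 0.0725, Ebp from -0.0322 to 0.0885, Kit from -0.0127 to 0.300 and Cxcl15 from -0.0655 to 0.0878. Except where the setting itself changes the samples or the threshold, the cause was not tested.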

Other observations

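Among 15 blood endothelial markers, Stard8 was the single one called, lower, with a difference of -0.62 ± 0.07 (SE, adjusted p = 0.00433), and it lost its call without intact-mated replicate 2 and under quantile normalization. Markers called higher numbered 1 without intact-mated replicate 3 or 4 and under median centring, and 2 without vasectomized-mated replicate 2 and under quantile normalization. The VEGF receptor Flt1 and the proton-sensing receptor Gpr4 differed by 0.57 and 0.56 without reaching 1.5-fold. Of 10 genes of lymphatic endothelium and CCR7 ligands, 9 smooth muscle, 8 fat and mesothelial and 3 red cell markers 0 were called by limma, with 3, 1, 0 and 0 at an unadjusted p under 0.05. The first of these lists also holds Ccl21a, which has no cluster of its own. Its clusters annotated to several genes were called lower, as given with the cytokines above.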
